A study of Mus musculus with 7 samples.

Results

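The Acsm genes of the mouse encode medium-chain acyl-CoA synthetases. All 4 genes followed here, Acsm1, Acsm2, Acsm3 and Acsm5, were found by symbol among 42256 gene identifiers in the deposited count table, and all 4 were among the 17964 genes with enough counts to be tested. RNA was sequenced from whole kidneys of 7 mice, 3 labelled CDH11+/+ and 4 labelled CDH11-/-. The animals were adult males, and their strain is given as a 129S1/Sv x C57BL/6 mix. Cdh11 encodes cadherin-11, an adhesion molecule of mesenchymal cells. All 7 mice, controls included, had lost a kidney by uninephrectomy and received angiotensin II by pump (800 ng/kg/min), and tissue was taken 4 weeks after surgery. No uninjured mouse was included, so a difference between genotypes that preceded injury and a different response to injury cannot be told apart. The comparison asks how the level of each Acsm transcript in the injured kidney differs between the labelled genotypes.

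Acsm enzymes sit in the mitochondrial matrix, where they use ATP to join medium-chain fatty acids, and carboxylic acids such as benzoate, to coenzyme A (CoA). The resulting thioesters can be oxidised for energy, or passed to glycine N-acyltransferases, which form glycine conjugates for excretion. In the kidney this chemistry is known from the proximal tubule, which burns fatty acids and clears organic acids. Acsm3 was first described as the SA gene, from its transcript level in the kidneys of hypertensive rats.

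Total counts ranged from 72117499 to 81812964 in the libraries labelled CDH11+/+ and from 72087906 to 84786351 in those labelled CDH11-/-. Cdh11 itself was not lower under the knockout label. It had 479, 338 and 932 counts in CDH11+/+ replicates 1 to 3, and 953, 684, 1006 and 876 in CDH11-/- replicates 1 to 4 (log2 fold change 0.56, SE 0.25, adjusted p = 0.14, edgeR). The count of a whole gene cannot tell reads of a deleted part from the rest, so every direction below is between libraries labelled CDH11-/- and libraries labelled CDH11+/+. The library labelled CDH11+/+ replicate 3 stood apart by 64.7 CPM (depth-scaled counts, on library sizes scaled by TMM) summed over 4 Y-linked genes, against 110.8 to 144.9 CPM in the other 6 libraries. Mitochondrial ribosomal RNA took 13.5% to 18.2% of counts under the CDH11+/+ label and 10.7% to 13.5% under the other. Its part in the results was not tested.

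The 4 genes lie in 1 cluster of 268 kb on mm10 chromosome 7, all on the plus strand. In GENCODE order they are Acsm5 (ENSMUSG00000030972, 119519463 to 119545551), Acsm2 (ENSMUSG00000030945, 119554340 to 119600690), Acsm1 (ENSMUSG00000033533, 119607026 to 119662515) and Acsm3 (ENSMUSG00000030935, 119760923 to 119787513). Acsm4, the remaining gene of the family and known from olfactory tissue, lies between Acsm1 and Acsm3. It had 0 counts in each of the 7 libraries, which allows up to 0.0425 CPM in the library with the highest limit (3 counts, counting error only).

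RefSeq promoter windows of GRCm38.p6, from 250 bases before to 50 after an annotated start, were found for all 4 genes and are shown because the 4 transcripts moved in the same direction. Capitals mark matches, on either strand, to 5 short motifs: TATAAA (the TATA box), GTTAAT (an HNF1 motif), CAAAG (an HNF4 core), AGGTCA (a nuclear receptor motif) and AGAACA (an androgen and glucocorticoid receptor motif).
Acsm2 promoter window, chr7:119554090-119554389, plus strand: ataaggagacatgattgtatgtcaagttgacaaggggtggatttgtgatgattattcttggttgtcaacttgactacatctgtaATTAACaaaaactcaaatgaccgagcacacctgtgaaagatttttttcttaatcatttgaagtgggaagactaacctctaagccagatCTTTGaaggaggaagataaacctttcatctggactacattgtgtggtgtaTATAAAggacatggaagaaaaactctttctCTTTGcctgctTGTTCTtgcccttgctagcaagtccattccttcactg
Acsm3 promoter window, chr7:119760673-119760972, plus strand: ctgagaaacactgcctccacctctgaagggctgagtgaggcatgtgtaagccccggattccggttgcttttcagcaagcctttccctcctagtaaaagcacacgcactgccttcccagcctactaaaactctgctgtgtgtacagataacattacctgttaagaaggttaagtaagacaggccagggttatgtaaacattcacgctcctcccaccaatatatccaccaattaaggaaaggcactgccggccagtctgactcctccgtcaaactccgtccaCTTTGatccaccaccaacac
Acsm1 promoter window, chr7:119617562-119617861, plus strand: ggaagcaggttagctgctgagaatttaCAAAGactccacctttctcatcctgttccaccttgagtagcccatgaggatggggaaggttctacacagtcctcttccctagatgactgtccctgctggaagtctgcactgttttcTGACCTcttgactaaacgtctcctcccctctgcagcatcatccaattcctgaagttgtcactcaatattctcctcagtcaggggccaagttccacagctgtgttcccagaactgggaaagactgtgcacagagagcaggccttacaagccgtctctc
Acsm5 promoter window, chr7:119526015-119526314, plus strand: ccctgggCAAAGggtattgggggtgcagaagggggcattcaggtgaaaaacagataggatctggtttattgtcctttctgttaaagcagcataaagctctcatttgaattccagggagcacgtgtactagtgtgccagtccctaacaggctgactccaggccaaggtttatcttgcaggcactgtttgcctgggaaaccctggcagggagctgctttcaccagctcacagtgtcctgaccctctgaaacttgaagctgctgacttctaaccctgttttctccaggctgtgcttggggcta

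Among the windows shown, that of Acsm2 was the one with a TATA box, at -28 from its start, and it also held the HNF1 motif at -166, CAAAG at -78 and at 3, and the receptor motif AGAACA at 14. Of 32851 windows of this length in the table, 13.6% held TATAAA, 7.1% GTTAAT and 19% AGAACA. The Acsm3 window matched only CAAAG, at 31, a sequence found in 53.9% of all windows. The Acsm1 window matched CAAAG at -223 and AGGTCA, which 16.3% of windows hold, at -107, and the Acsm5 window matched CAAAG at -243. GC content was 38.3% for the Acsm2 window shown, 50% for Acsm3, 50.7% for Acsm1 and 51.3% for Acsm5, beside a median of 52.7% over all windows. The windows of Acsm1 and Acsm5 start from RefSeq positions inside the GENCODE gene bounds given above, so GENCODE places a further upstream start in both. A second RefSeq window of Acsm2, not printed, matched CAAAG at -119 and none of the other 4 motifs, and its GC content was 46.7%.

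All 4 transcripts were higher in the libraries labelled CDH11-/-, by 1.47-fold to 9.72-fold, and for each of them the lowest CDH11-/- library stood above the highest CDH11+/+ library. By edgeR's quasi-likelihood test all 4 passed an adjusted p of 0.05, where 29.7% of the 17964 genes tested passed in either direction and 16.8% passed as higher. Groups stood apart in this way, with CDH11-/- higher, in 21.9% of genes tested. The median log2 fold change was 1.62 over the 4 genes and -0.01 over all genes tested. Levels are in CPM, and fold changes are of CDH11-/- over CDH11+/+. In whole tissue, more cells of a type and more transcript per cell cannot be told apart.

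**Figure D1:**
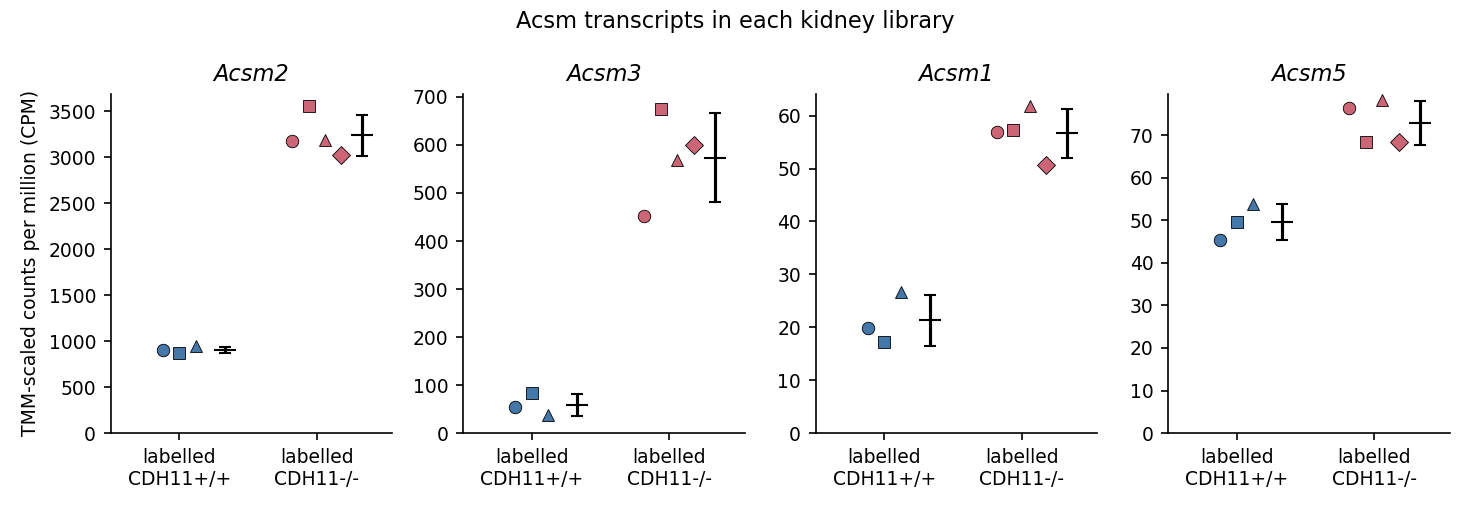
TMM-scaled CPM (vertical axis, linear, a separate scale for each gene) of Acsm2, Acsm3, Acsm1 and Acsm5 in each library, grouped by labelled genotype, with 1 symbol shape per replicate number and the mean ± SD to the right of the points (n = 3 and n = 4). In every panel the 4 CDH11-/- libraries sit above the 3 CDH11+/+ libraries, with Acsm3 at 38.7 to 83.5 CPM against 452 to 675 CPM and Acsm5 at 45.4 to 53.9 CPM against 68.4 to 78.1 CPM.

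Acsm2, which activates medium-chain fatty acids and aromatic acids such as benzoate, was the most abundant member. It stood at 903, 873 and 944 CPM in the CDH11+/+ libraries and at 3176, 3559, 3193 and 3026 CPM in the CDH11-/- libraries. The 3 CDH11+/+ values lay close together, and the lowest CDH11-/- value was over 3 times the highest of them. Acsm2 rose from a mean of 907 ± 35.4 CPM (SD, n = 3) to 3238 ± 227 CPM (SD, n = 4), with a log2 fold change of 1.84 (SE 0.09, 95% confidence interval 1.64 to 2.03, adjusted p = 1.13e-05, edgeR).

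Acsm3, a synthetase of short- and medium-chain acids, showed the largest fold change of the 4. It stood at 54.8, 83.5 and 38.7 CPM in the CDH11+/+ libraries and at 452, 675, 568 and 599 CPM in the CDH11-/- libraries. The CDH11+/+ libraries differed more than 2-fold among themselves, with replicate 3 the lowest. Acsm3 rose from a mean of 59.0 ± 22.7 CPM (SD, n = 3) to 573 ± 92.9 CPM (SD, n = 4), with a log2 fold change of 3.28 (SE 0.29, 95% confidence interval 2.61 to 3.95, adjusted p = 0.000295, edgeR). Only 29 of the 17964 genes tested had a larger log2 fold change.

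Exons of Acsm3 overlap those of Eri2, an exonuclease gene on the opposite strand, over 1962 bases, or 39.7% of the exonic length of Acsm3. The libraries were directional per the labels, but whether counting used strand is not given in the sources used here, so reads in the overlap could be assigned to either gene. Eri2 stood at 5.63 to 6.82 CPM in the CDH11+/+ libraries and at 5.31 to 7.85 CPM in the CDH11-/- libraries (log2 fold change -0.02, SE 0.14, adjusted p = 0.936, edgeR). Acsm5 overlaps Pdilt over 104 exonic bases, 2.74% of its length, and Pdilt stood at 1.72 CPM (mean, n = 3) and 1.42 CPM (mean, n = 4). Acsm1 and Acsm2 share no exonic base with another annotated gene.

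Acsm1, a butyrate-CoA ligase also known from liver, was the least abundant member in CPM. It stood at 19.9, 17.3 and 26.7 CPM in the CDH11+/+ libraries and at 56.9, 57.3, 61.9 and 50.7 CPM in the CDH11-/- libraries. Here CDH11+/+ replicate 3 was the highest of its group, whereas for Acsm3 it was the lowest. Acsm1 rose from a mean of 21.3 ± 4.84 CPM (SD, n = 3) to 56.7 ± 4.62 CPM (SD, n = 4), with a log2 fold change of 1.41 (SE 0.14, 95% confidence interval 1.09 to 1.74, adjusted p = 0.000306, edgeR).

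Acsm5, a member whose substrates are less well described, changed least. It stood at 45.4, 49.5 and 53.9 CPM in the CDH11+/+ libraries and at 76.3, 68.4, 78.1 and 68.4 CPM in the CDH11-/- libraries. The groups did not overlap, but the gap between the highest CDH11+/+ library and the lowest CDH11-/- library was small beside that of the other 3 genes. Acsm5 rose from a mean of 49.6 ± 4.27 CPM (SD, n = 3) to 72.8 ± 5.12 CPM (SD, n = 4), with a log2 fold change of 0.55 (SE 0.08, 95% confidence interval 0.38 to 0.73, adjusted p = 0.00121, edgeR).

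Without CDH11+/+ replicate 3 the log2 fold changes were 1.86 for Acsm2, 3.04 for Acsm3, 1.60 for Acsm1 and 0.61 for Acsm5, with adjusted p from 3.75e-05 to 0.00115 (edgeR).

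The 4 genes did not rise in proportion. In CPM summed over the 4 genes, the family stood at 1023 to 1063 in the CDH11+/+ libraries and at 3744 to 4360 in the CDH11-/- libraries, 3.80 times higher on the means. The log2 ratio of 1 member to another within a library, taken on CPM plus 0.5, is nearly free of library scaling at these levels. For Acsm3 over Acsm2 it was -4.03, -3.38 and -4.59 in the CDH11+/+ libraries and -2.81, -2.40, -2.49 and -2.34 in the CDH11-/- libraries, a difference of 1.49. For Acsm5 over Acsm2 it was -4.30, -4.13 and -4.12 against -5.37, -5.69, -5.34 and -5.46, a difference of -1.28.

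For each of the 6 pairs of members the ratios of the labelled groups did not overlap. The 6 pairs are drawn from only 4 genes, and the share of other gene pairs that stand apart was not counted. The difference between groups was 0.42 for Acsm2 over Acsm1, 1.91 for Acsm3 over Acsm1, -0.86 for Acsm5 over Acsm1 and -2.77 for Acsm5 over Acsm3. A 2-sided exact permutation test over the 35 ways of splitting 7 libraries cannot go below p = 0.0571, and all 6 pairs gave that value, also after Benjamini-Hochberg adjustment over the 6 pairs. None therefore passed 0.05 in a design that could not reach it.

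Levels of different genes were compared per kilobase of exon (CPM divided by the length of the merged exons, RPKM). Under the CDH11+/+ label Acsm2 stood at 122 ± 4.77 RPKM (SD, n = 3), Acsm5 at 13.0 ± 1.12 RPKM, Acsm3 at 12.0 ± 4.60 RPKM and Acsm1 at 9.76 ± 2.22 RPKM. Among the last 3 the libraries overlapped from each gene to the next, and their order was not beyond the spread. Under the CDH11-/- label Acsm2 stood at 436 ± 30.5 RPKM (SD, n = 4), Acsm3 at 116 ± 18.8 RPKM, Acsm1 at 26.0 ± 2.12 RPKM and Acsm5 at 19.2 ± 1.35 RPKM, with no overlap between neighbours in that order.

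As a share of the RPKM summed over the 4 genes, Acsm2 held 77.8% ± 1.91 (SD, n = 3) under the CDH11+/+ label and 73.0% ± 1.82 (SD, n = 4) under the CDH11-/- label. Acsm3 held 7.65% ± 3.03 and 19.4% ± 2.28 in the same groups. Acsm1 held 6.20% ± 1.26 and 4.36% ± 0.394, and Acsm5 held 8.31% ± 0.515 and 3.22% ± 0.372. These shares are a description, with no test, and they move with the exon length assumed. On the longest transcript Acsm3 held 10.0% and 24.6%, and in the CDH11+/+ libraries its mean then stood above that of Acsm5.

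With all 7 libraries and the main edgeR settings, the genes around the cluster showed smaller differences than the members. Of 15 tested genes from 250 kb before the first to 250 kb after the last Acsm gene, 11 are not members. With these settings edgeR called 0 of the 11, beside 29.7% of all genes tested, and 2 had an unadjusted p under 0.05. DESeq2, limma-voom and edgeR with 1 surrogate variable each called 1 of them, Umod, and edgeR with the deposited factors as offsets called 1, Dnah3. The log2 fold changes of the 11 ran from -0.39 to 0.34, with a median of -0.18. Umod, which encodes uromodulin of the thick ascending limb, stood at 2595, 1999 and 2113 CPM in the CDH11+/+ libraries and at 1987, 1689, 1766 and 1912 CPM in the CDH11-/- libraries. Its groups were apart by little (log2 fold change -0.28, SE 0.11, adjusted p = 0.0773, edgeR), and its adjusted p was 0.0239 by DESeq2, 0.0388 by limma-voom and 0.0436 by edgeR with 1 surrogate variable.

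Between Acsm1 and Acsm3 lie Thumpd1, which encodes an RNA-binding protein (log2 fold change -0.08, adjusted p = 0.516, edgeR), and the transcribed pseudogene Ppp1ccb (0.00, adjusted p = 0.992). Before Acsm5 lie Gp2 (-0.20, adjusted p = 0.42), Pdilt (-0.27, adjusted p = 0.376) and Gm26967 (-0.39, adjusted p = 0.413), and after Acsm3 the values were 0.34 for Rexo5 (adjusted p = 0.0848), -0.18 for Dcun1d3 (adjusted p = 0.295), -0.07 for Lyrm1 (adjusted p = 0.713) and -0.36 for Dnah3 (adjusted p = 0.3), all by edgeR. With the deposited factors as offsets Dnah3 had a log2 fold change of -0.85 (adjusted p = 0.045, edgeR). Rexo5 was called without CDH11-/- replicate 1 (log2 fold change 0.43, adjusted p = 0.0281, edgeR). With the main settings all 11 lay below the smallest log2 fold change of a member, 0.55. Only 10.8% of all genes tested exceeded that value, so most genes lay below it too.

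**Figure D2:**
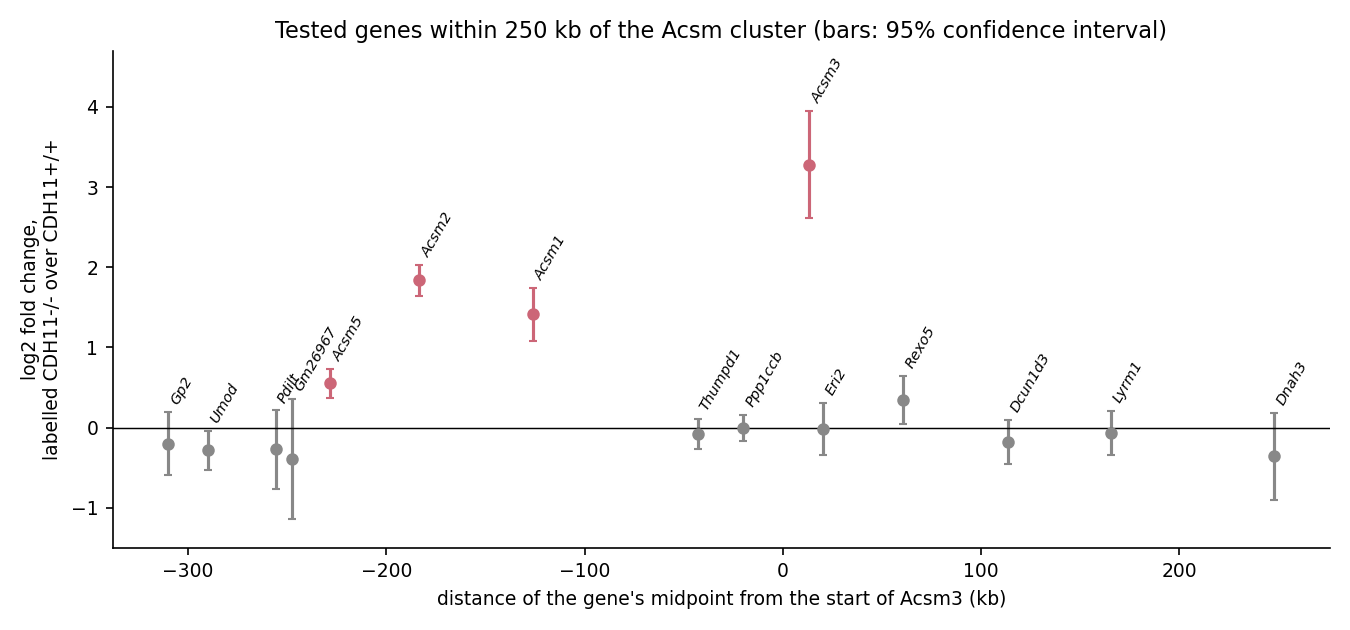
Log2 fold change, CDH11-/- over CDH11+/+ labels (vertical axis), of each of the 15 tested genes against the distance of its midpoint from the start of Acsm3 in kb (horizontal axis), with 95% confidence intervals as bars. The 4 Acsm genes, in red, lie at 0.55 to 3.28, and the 11 other genes, in grey, lie between -0.39 and 0.34.

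Markers of the proximal tubule also differed between the groups, with values that bear on genes of that segment. Of 15 markers 9 rose (60%, beside 16.8% of all genes tested) and 1 fell (6.67%, beside 12.9%), and their summed level was 14259 to 17731 CPM in the CDH11+/+ libraries and 20743 to 22588 CPM in the CDH11-/- libraries. Of 4 markers of the S1 segment, all among the 15, 3 rose and 0 fell (75% and 0%, beside 16.8% and 12.9%). Their sum was 1080 to 1695 CPM in the CDH11+/+ libraries and 2072 to 2584 CPM in the CDH11-/- libraries. Within the CDH11+/+ group replicate 3 stood well above the others for 3 of these markers. In CDH11+/+ replicates 1 to 3 Slc5a2 stood at 63.2, 50.4 and 169 CPM and Gatm at 101, 73.9 and 201 CPM. Slc5a12 stood at 55.7, 60.6 and 210 CPM, and its labelled groups overlapped. The 5 markers of the S3 segment, of which Slc27a2 is in both lists, all rose, with a sum of 2011 to 2239 CPM against 4485 to 4713 CPM. Their fold changes were uneven, at 18.1-fold for the anion transporter Slc22a7, 14.8-fold for the amino acid transporter Slc7a13, 4.00-fold for the flippase Atp11a, 2.53-fold for the hydroxylase Cyp7b1 and 1.48-fold for Slc27a2. Of the markers of other cells, called lower were 4 of 4 for principal cells (summed 317 to 461 CPM against 227 to 270 CPM), 3 of 4 for podocytes (328 to 408 against 204 to 302 CPM), 2 of 4 for intercalated cells, and 1 of 4 each for the thick ascending limb, the distal convoluted tubule and endothelium. Fibroblast and pericyte markers had 1 higher and 1 lower of 4, and immune markers 1 higher and 0 lower of 4. The part of these cell markers in the Acsm values was not tested beyond the ratios below. Of the liver markers Serpina3k had 0 counts in all libraries and Cps1 no more than 2 counts. Alb stood at 6.22 ± 1.07 CPM (SD, n = 3) against 3.84 ± 1.37 CPM (SD, n = 4). Apoa2 stood at 0.534 ± 0.259 CPM against 0.483 ± 0.215 CPM in the same groups, and neither Alb nor Apoa2 was called.

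Set against the mean log2 level of the 15 proximal tubule markers in the same library, 3 of the 4 Acsm genes stood higher in every CDH11-/- library than in any CDH11+/+ library, and Acsm5 did not. The share of all genes that stand apart on this ratio was not counted. The marker mean itself was 0.59 higher on the log2 scale in the CDH11-/- libraries. In CDH11+/+ replicates 1 to 3 that mean was 9.02, 9.14 and 9.50, and in the CDH11-/- libraries 9.77, 9.92, 9.77 and 9.77. Relative to the marker mean, Acsm3 was -3.23, -2.75 and -4.21 in the CDH11+/+ libraries and -0.94, -0.52, -0.62 and -0.55 in the CDH11-/- libraries, 2.74 higher on average. Acsm2 was 0.80, 0.63 and 0.38 against 1.87, 1.88, 1.87 and 1.79, 1.25 higher. Acsm1 was 0.83 higher, also without overlap, and Acsm5 differed by -0.04, with its groups overlapping. Exact 2-sided permutation gave p = 0.0571, the smallest possible, for Acsm1, Acsm2 and Acsm3, and p = 0.857 for Acsm5.

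The comparison depended on the reference, and its sign changed for Acsm1 and Acsm2. Relative to the 5 S3 markers, Acsm3 was 0.91 higher under the CDH11-/- label, with overlapping groups and an exact permutation p = 0.171. On the same reference Acsm1 was lower by a difference of -1.01, Acsm2 by -0.59 and Acsm5 by -1.87, each without overlap and with an exact permutation p = 0.0571. The S3 marker mean itself was 2.42 higher on the log2 scale in the CDH11-/- libraries, with Slc22a7 and Slc7a13 rising most. A gene that rose less than this mean came out lower, and the median log2 fold change over all genes tested was -0.01. The share of all genes that came out lower on this reference was not counted. Over the other 3 S3 markers, a reference chosen after seeing the data, the mean was 1.32 higher. Relative to these 3, the difference was 2.01 for Acsm3 and 0.52 for Acsm2, both higher without overlap, 0.09 for Acsm1 with overlapping groups, and -0.77 for Acsm5 without overlap. Exact permutation gave p = 0.0571 for Acsm2, Acsm3 and Acsm5 and p = 0.8 for Acsm1. Leaving out Slc22a7 and Slc7a13, which rose most, moved the difference of every Acsm gene upward. The permutation did not repeat that choice, so its p-values do not account for it.

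**Figure D3:**
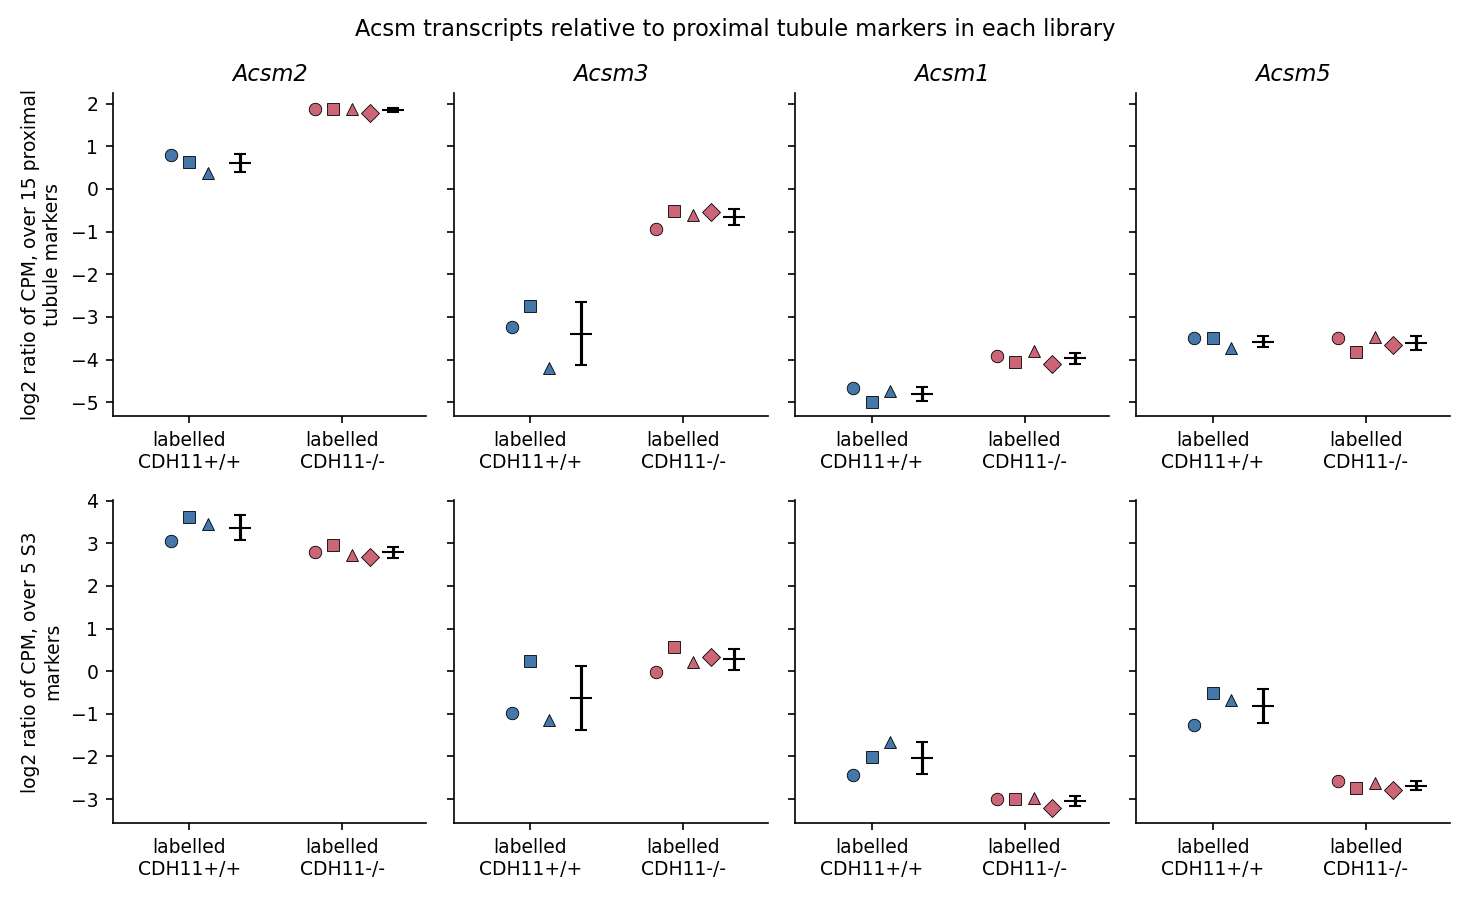
Log2 ratio of each Acsm transcript to the mean log2 level of 15 proximal tubule markers (upper row) or 5 S3 markers (lower row) in each library, from CPM plus 0.5, with the mean ± SD at the right of the points (n = 3 and n = 4) and 1 symbol shape per replicate number. In the upper row Acsm2, Acsm3 and Acsm1 sit higher in all 4 CDH11-/- libraries and Acsm5 overlaps. In the lower row Acsm2, Acsm1 and Acsm5 sit lower and Acsm3 overlaps.

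Enzymes that use the products of Acsm enzymes in glycine conjugation were also higher. All 3 tested genes of a list of 4 rose and 0 fell, where 16.8% of all genes tested were called higher and 12.9% lower. The fourth, Glyatl3, had 0 counts in every library. Keg1, a kidney-expressed gene of the glycine N-acyltransferase family, stood at 613, 532 and 421 CPM in the CDH11+/+ libraries and at 1200, 1726, 1517 and 1380 CPM in the CDH11-/- libraries. Its log2 fold change was 1.48 (SE 0.16, adjusted p = 0.000329, edgeR). Glyat, the glycine N-acyltransferase that conjugates benzoyl-CoA, rose, with 200.1 ± 20.5 CPM (SD, n = 3) under the CDH11+/+ label and 320 ± 21.0 CPM (SD, n = 4) under the other. The related Gm4952 rose from 0.451 ± 0.164 CPM to 1.83 ± 0.249 CPM.

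Genes of CoA supply and breakdown rose in 5 of 12 tested (41.7%, beside 16.8% of all genes tested) and fell in 0 (beside 12.9%), and the median log2 fold change was 0.17. Nudt19, a hydrolase that degrades CoA, stood at 223, 201 and 196 CPM in the CDH11+/+ libraries and at 638, 820, 755 and 732 CPM in the CDH11-/- libraries. It rose 3.56-fold (adjusted p = 1.49e-05, edgeR), close to the 3.57-fold of Acsm2. Pank1, a kinase of the committed step of CoA synthesis, rose 1.81-fold, Coasy, the CoA synthase, 1.77-fold, and Slc25a42, a mitochondrial CoA carrier, 1.31-fold. The number that rose was 3 without CDH11+/+ replicate 1, CDH11-/- replicate 2 or CDH11-/- replicate 4.

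Other acyl-CoA synthetases were called in both directions, at shares not far from those of all genes. Of 17 tested, 4 rose and 4 fell (23.5% each, beside 16.8% higher and 12.9% lower of all genes tested), and the median log2 fold change was -0.09. The acetyl-CoA synthetase Acss2, the acetoacetyl-CoA synthetase Aacs and the very-long-chain synthetase and transporter Slc27a2 rose 1.70-fold, 1.69-fold and 1.48-fold, and Acsf3, a malonyl-CoA synthetase, rose 1.34-fold. The 4 that fell, named after their values were seen, were Acsf2, Acsl4, Slc27a1 and Acsl5, at 1.72-fold, 1.70-fold, 1.48-fold and 1.33-fold lower. None of the 17 reached the log2 fold changes of Acsm1, Acsm2 or Acsm3, the largest rise being 0.76. Few genes did, as 2.10%, 1.04% and 0.161% of all genes tested exceeded these 3 members in that order. The number that fell was 2 without CDH11+/+ replicate 1, CDH11+/+ replicate 2 or CDH11-/- replicate 3.

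Of 11 genes of short- and medium-chain fatty acid oxidation 7 rose (63.6%, beside 16.8% of all genes tested) and 1 fell (9.09%, beside 12.9%), and the median log2 fold change was 0.26. Only 5 rose without CDH11+/+ replicate 1 or CDH11-/- replicate 3. Acadm, the medium-chain acyl-CoA dehydrogenase, rose, with 376 ± 16.5 CPM (SD, n = 3) under the CDH11+/+ label and 665 ± 66.4 CPM (SD, n = 4) under the other. Crot, which moves medium-chain acyl groups to carnitine, rose 1.82-fold and the short-chain dehydrogenase Acads 1.37-fold. Acaa2, the thiolase of the same pathway, was the one that fell, by 1.63-fold, with 175 ± 22.1 CPM (SD, n = 3) under the CDH11+/+ label and 107.4 ± 4.68 CPM (SD, n = 4) under the other.

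Acyl-CoA thioesterases split the products of the synthetases back into acid and CoA. They rose in 2 of 11 tested and fell in 2 (18.2% each, near the 16.8% and 12.9% of all genes tested), and the median log2 fold change was 0.00. Acot13 and Acot12 rose 1.65-fold and 1.36-fold, and Acot3 and Acot2 were 2.31-fold and 1.39-fold lower. Acot genes of the Acot1 to Acot6 group are close copies, and the division of reads among them is uncertain. Without CDH11+/+ replicate 1, 1 member rose.

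**Figure D4:**
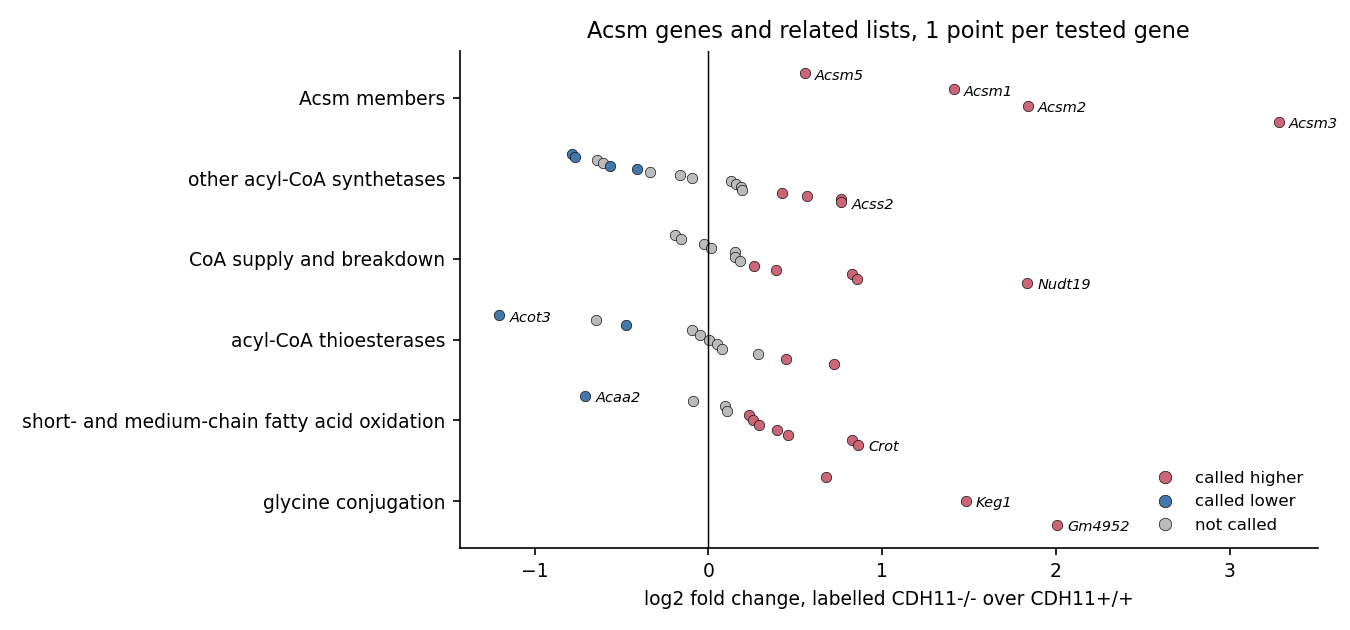
Log2 fold change, CDH11-/- over CDH11+/+ labels (horizontal axis), of each tested gene in the Acsm set and 5 related lists (rows, points spread vertically for legibility), coloured by edgeR call at an adjusted p of 0.05. The Acsm and glycine conjugation rows hold points called higher only, whereas the other acyl-CoA synthetases have 4 called higher and 4 called lower.

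The protein-coding genes whose values over the 7 libraries lay closest to each member were named by the root mean square difference of log2(CPM + 0.5), each gene centred on its own mean, among 12763 genes averaging 1 CPM or more. The measure is set mainly by the difference between the labelled groups. Closest to Acsm2 were Nudt19 (0.10), Dcst1 (0.10) and the racemase gene Amacr (0.11), beside a median distance of 0.92 over all genes compared. Dcst1 stood at 0.653 ± 0.155 CPM (SD, n = 3) and 3.59 ± 0.198 CPM (SD, n = 4), where the added 0.5 compresses its change. Its fitted log2 fold change was 2.45, against 1.84 for Acsm2. Closest to Acsm1 were Fam151a (0.08), Depdc1b (0.08) and Vwa1 (0.08), beside a median of 0.73, and closest to Acsm5 were Hook2, Zdhhc12 and the serine protease gene Hpn (each 0.04), beside a median of 0.32.

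Acsm3 had the largest median distance of the members and also a wider gap to its nearest genes. These were the organic anion transporter gene Slco1a1 (0.23), Odc1, the ornithine decarboxylase of polyamine synthesis (0.42), and Kap, the kidney androgen-regulated protein (0.54), beside a median of 1.68. Slco1a1 stood at 21.3 ± 9.25 CPM (SD, n = 3) and 270 ± 54.5 CPM (SD, n = 4). Among the members, the closest pair was Acsm1 and Acsm2 (0.26) and the farthest Acsm3 and Acsm5 (1.43).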

How the data were processed

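The deposited expected counts (estimated reads for each gene) are whole numbers, with 1 column per library. The deposited normalized values, a signal with no common total, differ from the counts by factors that vary between genes, and entered only as offsets in 1 alternative. DRAGEN, DESeq2 and mm10 are named in the submitters' processing notes, and the annotation, strand setting and filters are not given in the sources used here. Symbols, positions and exon lengths came from GENCODE M21 on the same assembly, matching 42170 of 42256 identifiers, and promoter windows from RefSeq.

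Groups followed the genotype in the labels, and replicate numbers follow deposit order and pair nothing. All 21 library pairs differed beyond sampling noise. Genes were filtered with filterByExpr and tested on the whole table with edgeR 4.0.16 (R 4.3.3): TMM, robust quasi-likelihood test, 2-sided, without covariates, Benjamini-Hochberg over 17964 genes, called under 0.05. SEs derive from the F statistic and intervals from its total degrees of freedom. The step was tested on simulated counts. Ratios used exact permutation (SciPy 1.17.1). Alternatives were DESeq2 1.42.0, RLE scaling, no filter, limma-voom 3.58.1 with quality weights, 1 surrogate variable (sva 3.50.0), the deposited factors as offsets, no robust estimation and leaving out each library.

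The members, lists, markers and tests were chosen with earlier results of these data known, so they are no independent evidence of direction. Named were all members, the tested neighbours within 250 kb, up to 4 called genes per list by adjusted p, the 3 nearest genes per member and Cdh11. The promoter motifs were chosen after the files were seen.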

Additional observations from a re-analysis of the deposited data

Results flagged for a closer look

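Dixon's test on the 4 CDH11-/- libraries was applied to 70 genes, where chance marks about 1 in 20, and it marked 2, neither of them an Acsm gene. Rexo5, the gene after Eri2 beside Acsm3, stood at 3.35 CPM in CDH11-/- replicate 1 and at 4.30 to 4.49 CPM in the other 3. The fatty acid transport gene Slc27a4 stood at 41.4 CPM in CDH11-/- replicate 2 and at 44.8 to 45.3 CPM in the other 3.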

How the results depend on the processing

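Each Acsm gene stayed higher and called in all 14 alternatives run, over log2 fold changes of 1.28 to 1.60 for Acsm1, 1.78 to 1.87 for Acsm2, 3.04 to 3.62 for Acsm3 and 0.48 to 0.61 for Acsm5, with the highest adjusted p of 0.00779 for Acsm5. No paired analysis was possible because the labels give no replicate numbers shared between the groups. Leaving out each library in turn gave 2137 to 2879 genes called higher and 1581 to 2421 lower over all genes. The same step gave 3 to 5 genes higher for CoA supply and breakdown, 2 to 4 lower for other acyl-CoA synthetases, and 1 to 3 higher for thioesterases. For short- and medium-chain fatty acid oxidation it gave 5 to 7 higher. Relative to S3 markers in place of all proximal tubule markers, the difference was -1.01 for Acsm1 and -0.59 for Acsm2, a change of sign that was absent without Slc22a7 and Slc7a13 (0.09 and 0.52), a reference chosen after seeing the data. Relative to proximal tubule markers, Acsm5 ranged from -0.11 to 0.031 over the libraries left out, around a value near 0. With the longest transcript as length, the share of the family sum was 3.86% for Acsm1, 68.1% for Acsm2 and 24.6% for Acsm3 under the CDH11-/- label, and 75.0% for Acsm2 and 9.26% for Acsm5 under the CDH11+/+ label. Depth did not limit the members, whose lowest count in a library was 1294.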
